A study of Mus musculus with 8 samples.

Results

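The windows described here lie at the ends of mouse chromosomes. They are stretches of 5 kb, starting at multiples of 5000, that hold at least 20 listed CpG cytosines (rows of the deposited table, with each strand on its own row). Windows in the first 2 Mb after the first listed position of chromosomes 1 to 5 and 10 to 19 form the centromere side. Windows in the last 2 Mb before the last listed position of chromosomes 1 to 4 and 10 to 19 form the telomere side. This gave 11433 windows of 363344, with 5968 on the centromere side and 5465 on the telomere side. The other 351911 windows are called the interior. The rule uses position and the number of rows, and no methylation level.

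Mouse chromosomes carry the centromere close to one end, next to long arrays of satellite repeats that genome assemblies largely lack. The first listed position, between 3000011 and 3100032 depending on the chromosome, is therefore the first assembled sequence beyond that gap and not the centromere itself. The opposite end leads to the telomere, an array of TTAGGG repeats. In mammalian liver most CpGs are methylated, and CpG-dense promoters are the main exception.

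Whole-genome bisulfite sequencing was done on livers of male C57BL/6J mice, 8 weeks old when bought and kept for 28 weeks on a normal diet or on one rich in fat, cholesterol and fructose. Of the libraries, 4 are titled NASH, for nonalcoholic steatohepatitis, and 4 are titled WT, whose table columns are named ND (normal diet), the name used below. All 8 carry the genotype WT. The labels' treatment field runs against the titles, since libraries titled WT carry the treatment NASH and those titled NASH carry WT. Groups follow the titles and the column names. If the treatment field were right, every group difference below would have the opposite sign. The labels do not say that each library is a separate mouse, so p-values measure the spread between these libraries, which may be technical. They give no batch.

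The table holds methylation levels in percent without read counts, and the depth is therefore unknown. The mean share of exact zeros per window was 11.6% on the centromere side, 9.58% on the telomere side and 7.26% in the interior. This mean weighs every window equally, whatever its number of rows, and is not the share of all values. An exact 0 can stand for a position without reads. Spans of hepatocyte marker genes, 15 of 18 on the list measured, had the lowest mean level of 7 marker lists in every library, with 37.2% to 39.4% in ND and 48.5% to 54.1% in NASH. The groups did not overlap for that list, and all 15 genes were higher in NASH. Macrophage and Kupffer cell markers, 11 of 13 measured, ran the other way on the list mean, at 71.1% to 73.0% in ND and 69.3% to 70.2% in NASH. Among these genes 2 were higher in NASH, and only Mpeg1 and Cd5l had groups apart. The largest difference was at Mpeg1, with a mean of 59.0% in NASH and 71.7% in ND. Groups overlapped for neutrophil (9 genes), lymphocyte (6), stellate cell and fibroblast (9), endothelial (7) and cholangiocyte (6) markers, whose NASH minus ND differences were -1.96 to -0.356 percentage points. No marker gene in any list was at 0.

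Promoter sequences give a view of the CpGs behind the levels. RefSeq's promoter table (build GRCm38.p6) placed 442 promoters in windows of the centromere side and 537 in windows of the telomere side, of 22672 on the chromosomes read. The median promoter held 9 CpGs per 300 bases on the centromere side, 10 on the telomere side and 7 in the interior. The telomere repeat unit TTAGGG, searched on both strands (TTAGGG or CCCTAA), was found in 7.92% of centromere-side promoters and 10.2% of telomere-side promoters. It was found in 10.5% of all promoters. The 5 promoters below, each given as the 250 bases before the start site on the gene's strand, lie in or next to windows discussed later and were chosen after their values were seen. Capitals mark CpGs. Ghr (growth hormone receptor, chr15:3583353-3583602, minus strand) and Chka (choline kinase alpha, chr19:3851523-3851772, plus strand) show the CpG-dense, unmethylated kind. C6 (complement component 6, chr15:4726960-4727209, plus strand) and Mettl7b (chr10:128960989-128961238, minus strand) show the CpG-poor kind. Gm13133 (chr4:154550032-154550281, plus strand) starts inside the Prdm16 gene.
Ghr: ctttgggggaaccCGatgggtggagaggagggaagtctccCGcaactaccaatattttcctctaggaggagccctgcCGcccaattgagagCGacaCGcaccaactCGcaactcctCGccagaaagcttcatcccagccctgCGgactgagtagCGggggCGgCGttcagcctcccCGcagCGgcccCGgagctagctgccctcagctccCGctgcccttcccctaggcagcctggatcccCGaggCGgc
Chka: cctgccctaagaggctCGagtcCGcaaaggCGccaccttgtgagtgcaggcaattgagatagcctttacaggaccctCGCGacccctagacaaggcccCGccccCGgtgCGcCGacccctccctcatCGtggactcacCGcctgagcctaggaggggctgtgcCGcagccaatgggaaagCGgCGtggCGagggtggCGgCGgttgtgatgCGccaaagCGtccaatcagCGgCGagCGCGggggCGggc
C6: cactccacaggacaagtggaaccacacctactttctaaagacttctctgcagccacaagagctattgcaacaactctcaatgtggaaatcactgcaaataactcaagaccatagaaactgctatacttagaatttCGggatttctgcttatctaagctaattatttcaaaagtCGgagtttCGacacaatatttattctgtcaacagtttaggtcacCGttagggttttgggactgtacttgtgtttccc
Mettl7b: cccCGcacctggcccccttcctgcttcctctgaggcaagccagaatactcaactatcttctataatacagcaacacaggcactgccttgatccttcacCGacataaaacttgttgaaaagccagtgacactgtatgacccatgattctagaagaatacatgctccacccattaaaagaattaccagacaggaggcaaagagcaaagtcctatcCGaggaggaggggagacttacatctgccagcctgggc
Gm13133: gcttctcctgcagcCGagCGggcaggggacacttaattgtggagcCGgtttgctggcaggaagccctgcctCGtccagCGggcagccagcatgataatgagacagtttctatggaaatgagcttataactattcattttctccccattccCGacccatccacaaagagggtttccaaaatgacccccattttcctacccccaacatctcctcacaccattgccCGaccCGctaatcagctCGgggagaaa

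These sequences hold 17 CpGs for Ghr, 24 for Chka, 4 for C6, 3 for Mettl7b and 9 for Gm13133. Over the 300 bases that also take in the first 50 after the start site, Ghr stood at 0.752% ± 0.846 (SD, n = 4) in NASH and 0.448% ± 0.541 in ND. Chka stood at 0.612% ± 0.729 in NASH and 0.347% ± 0.430 in ND. Both were close to unmethylated in both groups. The C6 promoter, over 12 rows, read 26.9%, 10.4%, 34.9% and 40.9% in NASH and 9.57%, 24.9%, 4.77% and 6.49% in ND. NASH replicate 2 was low and ND replicate 2 was high, so the groups overlapped. Mettl7b, over 10 rows, stood at 27.0% ± 5.34 in NASH and 17.8% ± 9.68 in ND, also overlapping. Gm13133, over 22 rows, read 54.7%, 54.1%, 59.0% and 43.1% in NASH and 75.5%, 66.4%, 73.7% and 76.6% in ND. All 4 NASH libraries lay below all 4 ND libraries there. Single promoters were not tested.

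Over all promoters with at least 6 rows, the mean level was 20.2% ± 0.274 in NASH and 19.9% ± 0.433 in ND on the centromere side (332 promoters). It was 19.2% ± 0.384 and 19.5% ± 0.418 on the telomere side (402 promoters), and 28.7% ± 0.284 and 28.98% ± 0.270 in the interior. Promoters near either end were thus listed with lower methylation than interior ones, in both groups.

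As deposited, both chromosome sides had lower methylation than the interior, and the telomere side had less than the centromere side. The mean over windows was 72.8% ± 0.578 in NASH and 73.2% ± 0.553 in ND on the centromere side. The telomere-side mean was 71.6% ± 0.750 in NASH and 72.1% ± 0.759 in ND, and in the interior 75.4% ± 0.741 and 75.9% ± 0.701 (SD, n = 4 each). The telomere side minus the centromere side was -1.39, -1.33, -0.985 and -1.16 percentage points in the NASH libraries. In the ND libraries it was -1.14, -1.36, -0.820 and -1.03. The mean difference was -1.15 (SD 0.202 over 8 libraries), below 0 in all 8 (exact two-sided sign-flip permutation test, p = 0.0078, the smallest that 8 libraries allow, also after Benjamini-Hochberg adjustment over 3 comparisons). The centromere side lay 2.69 percentage points below the interior by the same test (difference -2.69, SD 0.171, adjusted exact p = 0.0078), below 0 in 8 of 8. The telomere side lay further below it (difference -3.84, SD 0.0476, adjusted exact p = 0.0078), again in 8 of 8.

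These tests compare libraries, which all share the same windows, and say nothing about how even the chromosomes are. The centromere-side deficit depended on chromosome 14 and on the zeros. With the chromosome 14 end left out, the difference from the interior was -0.0458 (exact p = 0.492). With every exact zero left out it turned to 0.921, and with windows over 90% zero and the centromere ends of chromosomes 14 and 19 left out it was 1.07 (exact p = 0.0078 each). The difference between the sides was -3.80 without the chromosome 14 centromere end, and with the first and last 1 Mb in place of 2 Mb it was -0.0568 (exact p = 0.508). The telomere side stayed below the interior under each alternative tried.

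The chromosome ends differed far more than the groups did. On the centromere side, the level over all 8 libraries ran from 36.2% on chromosome 14 and 60.5% on chromosome 19 to 80.9% on chromosome 5. On the telomere side it ran from 63.6% on chromosome 15 to 77.9% on chromosome 16. In 10 of the 14 chromosomes with both ends the telomere end was the lower one. The gap was widest on chromosome 10 (-11.3 percentage points) and chromosome 13 (-10.9), in all 8 libraries each. Chromosomes 14 (33.6) and 19 (14.5) had the largest gaps the other way, with chromosome 16 (7.99) and chromosome 1 (1.05) behind them. Compared with the interior of the same chromosome, 11 of 14 telomere ends were lower and 5 of 15 centromere ends were. Chromosome 15's telomere end was 12.7 percentage points below its interior (difference -12.7), while chromosome 5's centromere end was 6.47 above it.

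**Figure D1:**
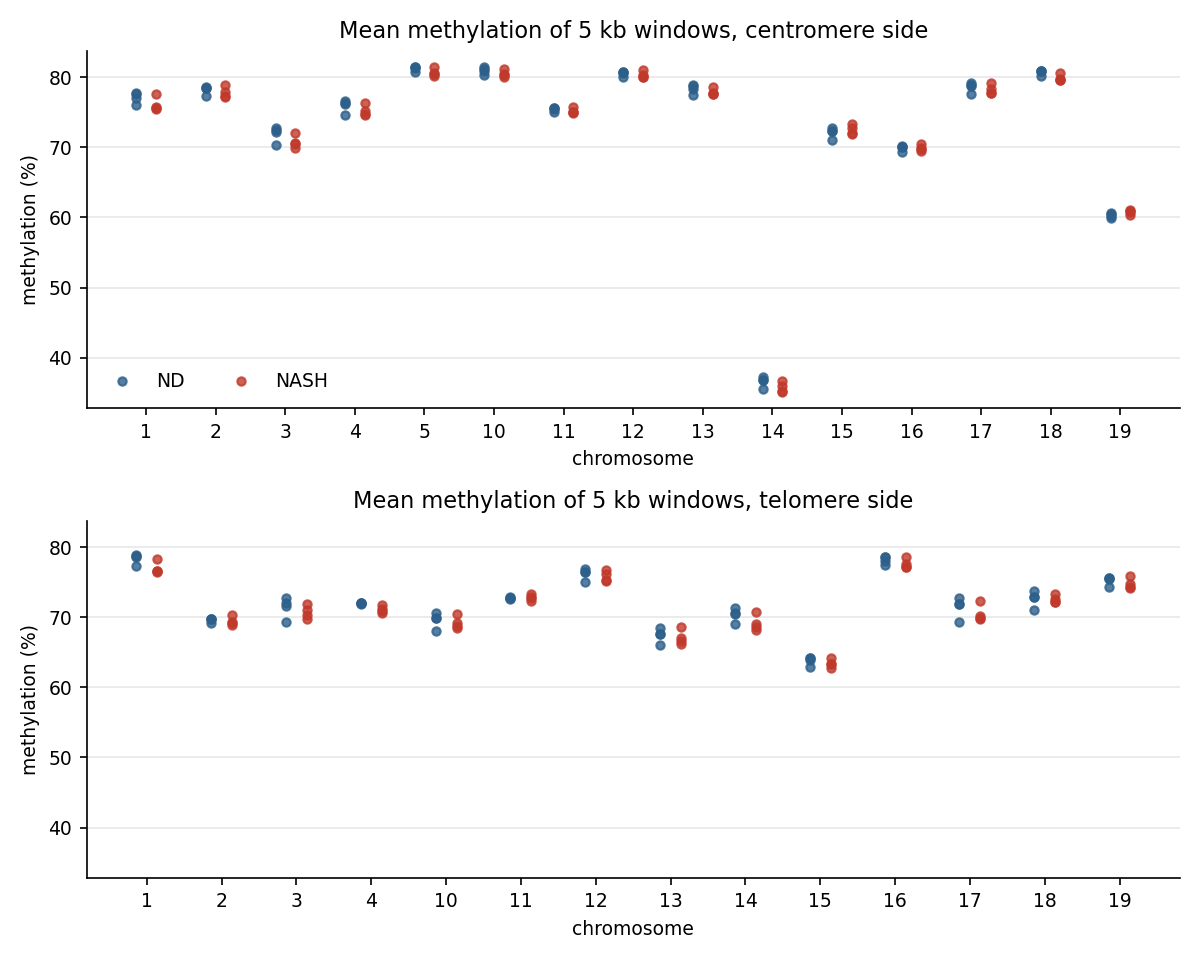
Mean methylation in percent of the 5 kb windows at each chromosome end, one point per library (blue ND, red NASH, 4 each), with the centromere side above and the telomere side below. The centromere ends of chromosomes 14 and 19 lie far below the others, and the points of both groups mix at nearly every end.

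The lowest centromere ends, those of chromosomes 14, 19 and 16, were also those with the highest mean share of exact zeros per window. The end of chromosome 3, next in order at 71.4%, had a mean of only 5.58% zeros per window. At the centromere end of chromosome 14 the mean was 55.1% zeros per window, and 76 of 400 windows had over 90% of their values at 0. With those 76 left out its level was 43.4% ± 0.889 in NASH and 44.3% ± 0.938 in ND, still the lowest end. At the centromere end of chromosome 19 the mean was 26.0% zeros per window, and 65 windows were over 90% zero. Without those 65 the level was 72.4% ± 0.391 in NASH and 71.8% ± 0.285 in ND. Chromosome 15 had 28 such windows, and without them its centromere end read 77.8% ± 0.719 and 77.5% ± 0.762. In all, 180 centromere-side windows (3.02%), 13 telomere-side windows (0.238%) and 2896 interior windows (0.823%) were over 90% zero. Unmethylated cytosines and positions without reads cannot be told apart in these windows.

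On chromosome 19 the zeros formed a block. Over chr19:4014581-4260337, a span of 246 kb with 7428 rows, 98.8% of rows were 0 in all 8 libraries. The 100 kb before the block read 65.5% ± 0.786 in NASH and 65.6% ± 0.416 in ND. The 100 kb after it read 64.6% ± 0.700 and 66.0% ± 0.316. The block spans 19 protein-coding genes, among them Gstp1, Gstp2 and Gstp3 (glutathione transferases of the pi class) and Ppp1ca (a catalytic subunit of protein phosphatase 1). Their CpGs are only said here to be listed at 0, gene bodies included. On chromosome 15, 6 stretches of at least 100 rows, all 0 in every library, lay between 3061145 and 3183145 and touched no listed protein-coding gene. On chromosome 14, 7 such stretches lay between 3497090 and 4603861, over the predicted genes Gm2977 and Gm3050 in part. The telomere side had 1, on chromosome 13, at chr13:120069345-120071650.

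Levels changed along the sides in different ways. The 250 kb nearest the first listed position had the lowest centromere-side level, 65.9% ± 0.531 in NASH and 66.3% ± 0.656 in ND. Between 1250 and 1500 kb the level was 75.9% ± 0.756 and 76.5% ± 0.615. With windows over 90% zero left out, the nearest 250 kb stood at 70.1% ± 0.587 and 70.4% ± 0.681, still the lowest step. The dip between 1000 and 1250 kb, 70.5% in NASH and 70.8% in ND, was 75.4% and 75.7% without those windows. On the telomere side the level was 73.3% ± 0.764 and 73.9% ± 0.703 in the last 250 kb, 69.9% ± 0.812 and 70.4% ± 0.913 between 750 and 1000 kb, and 73.2% ± 0.659 and 73.5% ± 0.456 between 1750 and 2000 kb. It had no low step at the very end.

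**Figure D2:**
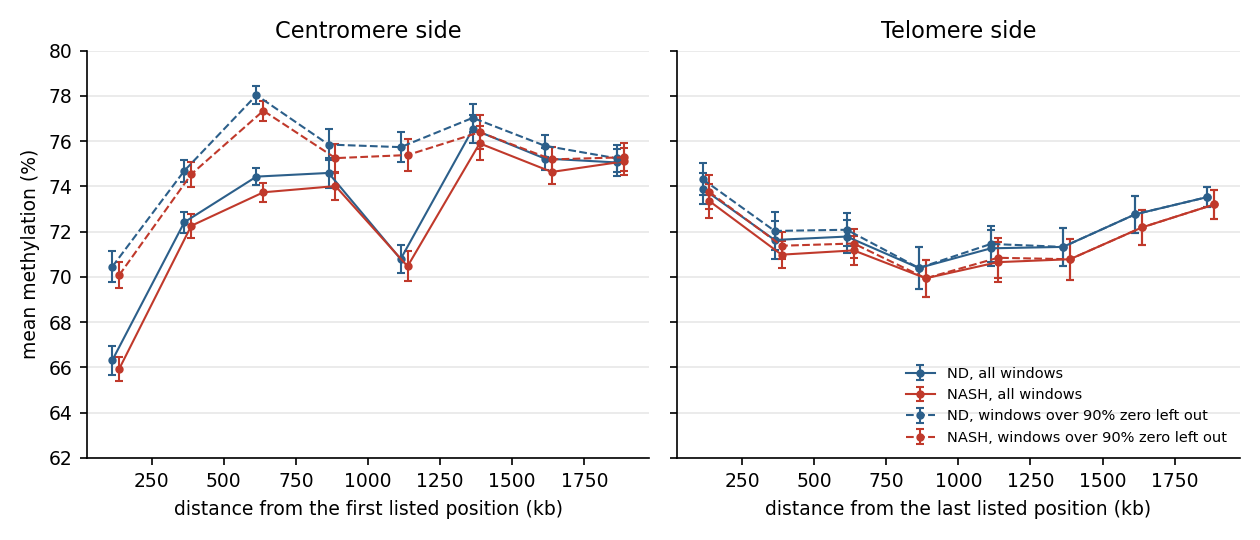
Mean methylation in percent (points, with bars of 1 SD over 4 libraries) in steps of 250 kb from the first listed position (left) and from the last (right), for all windows (solid) and with windows over 90% zero left out (dashed). The centromere side is lowest in its first step, at 65.9% in NASH and 66.3% in ND, and the telomere side is lowest between 750 and 1000 kb.

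CpG density separated windows more than side did. With windows over 90% zero left out, windows of 200 or more rows had a mean of 35.9% on the centromere side (208 windows), 34.0% on the telomere side (290 windows) and 37.7% in the interior. Windows of 50 to 99 rows stood at 78.8%, 76.3% and 79.4%. The sides were furthest apart from 100 to under 200 rows, with 74.9% in NASH and 75.1% in ND on the centromere side, 68.8% and 69.2% on the telomere side, and 76.0% and 76.3% in the interior. The telomere side also had more windows of 200 or more rows, 5.34% of its windows against 3.87% on the centromere side and 3.39% in the interior, and more of 20 to 49 rows, 38.0% against 25.2% and 25.6%. Over all windows, those at 80% or more in ND made up 50.3% of the centromere side, 36.6% of the telomere side and 48.6% of the interior. Windows under 20% made up 5.50%, 3.51% and 2.34%. With windows over 90% zero left out, those under 20% made up 2.56%, 3.28% and 1.53%, so the order of the sides turned.

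**Figure D3:**
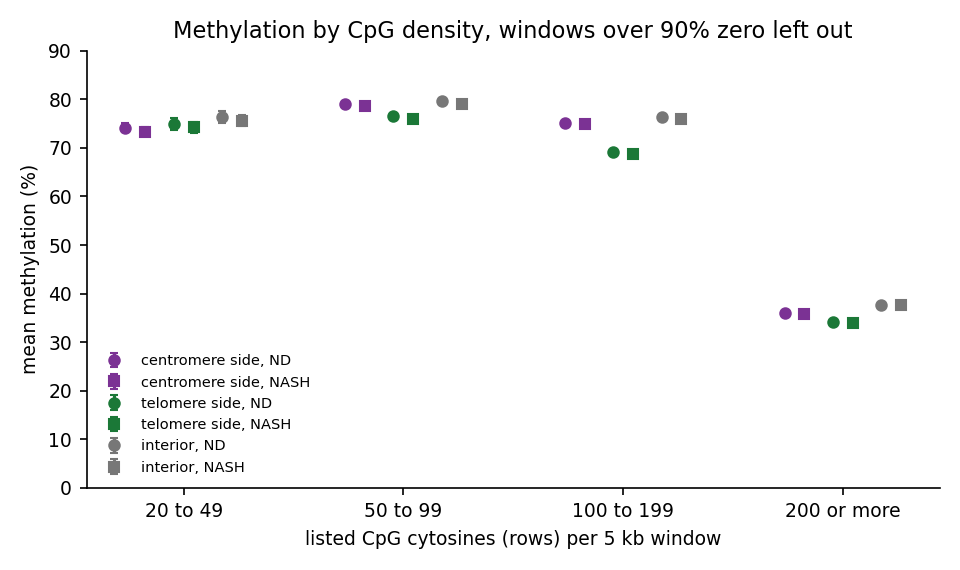
Mean methylation in percent by the number of listed CpG cytosines in a window, with windows over 90% zero left out (circles ND, squares NASH, bars of 1 SD over 4 libraries, smaller than most symbols). Windows of 200 or more rows lie near 35.9%, 34.0% and 37.7% on the centromere side, the telomere side and in the interior, and the telomere side is lowest from 50 rows on.

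The limits of the definition cut through a range of levels. Windows with 20 or 21 rows stood at 73.5% ± 1.79 in ND on the centromere side (27 windows) and 71.3% ± 1.48 on the telomere side (56), while those with 18 or 19 rows, just outside, stood at 66.8% ± 1.90 (11) and 70.8% ± 2.13 (42). The 100 kb inside the 2 Mb limit read 74.7% ± 0.682 in ND on the centromere side and 73.8% ± 0.457 on the telomere side. The 100 kb outside read 74.0% ± 0.473 and 75.6% ± 0.622.

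The side means did not separate the diets. On the centromere side NASH libraries read 72.4%, 72.4%, 73.6% and 72.6%, and ND libraries 73.4%, 72.4%, 73.6% and 73.4%. NASH replicate 3 was high and ND replicate 2 low, and the groups overlapped (difference -0.414 percentage points, exact two-sided permutation test, p = 0.486, adjusted p = 0.486 over 3 comparisons). Telomere-side NASH libraries read 71.0%, 71.0%, 72.6% and 71.5%, and ND 72.3%, 71.0%, 72.8% and 72.4%. The same libraries stood out, and the difference was -0.541 (exact permutation p = 0.4, adjusted p = 0.486). The smallest p that 4 libraries against 4 allow is 0.0286. The difference between the sides within a library was -1.22 ± 0.182 in NASH and -1.09 ± 0.225 in ND, which did not separate the groups either (difference -0.128, exact permutation p = 0.457, adjusted p = 0.486). The interior mean was also lower in NASH, 75.4% against 75.9%, with the groups overlapping.

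Of the 29 ends, 25 had a lower mean in NASH, 12 of 15 on the centromere side and 13 of 14 on the telomere side. Neighbouring ends share the library's overall level, so these are not independent counts. The groups did not overlap at 1 end, which is 3.45% of 29, the telomere end of chromosome 4. There NASH libraries read 71.1%, 70.8%, 71.7% and 70.7%, and ND libraries 72.1%, 71.8%, 72.0% and 72.0%. The difference of -0.873 had the smallest possible exact permutation p of 0.0286 and an adjusted p of 0.552 over the 29 ends, so no end passed. With doubtful zeros left out (a 0 among neighbours with a median of 50% or more) no end separated the groups. The number was 7 without NASH replicate 3, 2 without NASH replicate 2 and 5 without ND replicate 2. These compare 4 libraries with 3, where groups come apart by chance more often (smallest exact permutation p of 0.0571).

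The largest differences at centromere ends were lower levels in NASH on chromosome 3 (-1.17), chromosome 1 (-1.02) and chromosome 14 (-0.828), and higher levels on chromosome 19 (0.477), chromosome 15 (0.370) and chromosome 16 (0.0124). At telomere ends they were lower levels on chromosome 1 (-1.38), chromosome 14 (-1.18) and chromosome 4, and a higher level only on chromosome 11 (0.0700). All but chromosome 4 overlapped.

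Single windows did separate the groups. A limma fit over all 363344 windows, with Benjamini-Hochberg adjustment over all of them and a threshold of 0.05, called 52 windows on the centromere side, 41 higher and 11 lower in NASH, or 0.871%. It called 32 on the telomere side, 21 higher and 11 lower, or 0.586%. Over all windows 0.605% were called, 0.408% higher and 0.198% lower, so the telomere share was near that background and the centromere share above it, a difference that was not tested. Groups did not overlap in 9.33% of centromere-side windows, 7.83% of telomere-side windows and 8.78% of all windows (3.43% higher and 5.34% lower in NASH). The typical window leaned the other way from the calls: the median difference was -0.527 on the centromere side, -0.615 on the telomere side and -0.639 over all windows.

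Called windows that rose came from intermediate levels, and those that fell came from high ones. The 41 centromere-side windows higher in NASH had a median ND level of 57.7% and a median difference of 10.0 percentage points, and the 21 on the telomere side 41.3% and 9.60. The 11 lower windows had a median ND level of 83.5% and a median difference of -7.30 on the centromere side, and 81.6% and -8.44 on the telomere side. Windows over a protein-coding gene held 38 of the 41 centromere-side windows that rose and 18 of the 21 on the telomere side, although such windows were 45.2% and 45.7% of the sides. They held 7 of the 11 that fell on each side. In the interior, 1172 of 1420 windows that rose lay over such a gene, among 43.3% of windows.

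The calls depended on each library. Leaving out any 1 of the 8 left between 2 and 20 called windows on the 2 sides together, in place of 84. In bulk liver, a change in the mix of cells and a change within a cell type cannot be told apart. With every exact zero left out, 123 windows were called and 39.0% of them were higher in NASH, against 73.8% as deposited. Both ways, 38 windows were called. The shares of all windows called in these refits are not given here, so the counts describe the 2 sides only.

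**Figure D4:**
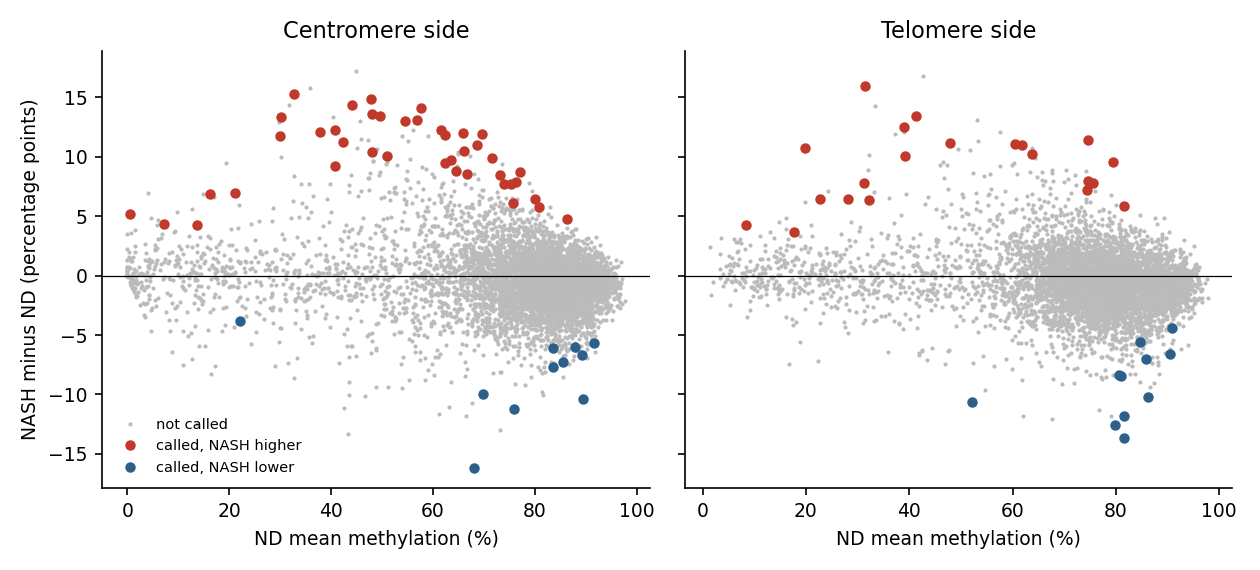
Difference in methylation (NASH minus ND, percentage points) against the ND mean in percent for every centromere-side (left) and telomere-side (right) window, with called windows in red (higher in NASH) and blue (lower). Called windows that rose lie mostly at intermediate ND levels, with medians of 57.7% and 41.3%, and those that fell lie mostly above 80%.

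Ghr, the receptor through which growth hormone acts on the liver, held more called windows than any other gene of the sides. The gene lies at chr15:3317755-3583352 on the minus strand, and 54 windows cover it. Over these windows NASH libraries averaged 76.4%, 76.1%, 76.8% and 77.8%, and ND libraries 71.9%, 71.5%, 72.1% and 72.3%. All NASH libraries lay above all ND libraries. In NASH 49 of the 54 windows had the higher mean, and 7 rose by the limma test, 3 of them side by side just inside the gene. Over all 363344 windows, 134044 had the higher mean in NASH. Some shorter genes had a larger share of their windows called, with 3 of 5 at Mcm10 and 2 of 2 at Mettl7b. The window chr15:3575000-3579999 read 62.7%, 61.9%, 59.3% and 67.4% in NASH and 46.4%, 51.0%, 50.6% and 43.6% in ND (limma difference 14.9, SE 2.32, adjusted p = 0.0301).

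The next windows into the gene rose by 10.5 (chr15:3570000-3574999) and 9.88 (chr15:3565000-3569999) percentage points (limma, adjusted p = 0.0321 and 0.0308). The window over the start site and the promoter printed above read 9.87% ± 1.73 in NASH and 6.67% ± 0.841 in ND, without overlap, and did not pass (limma, adjusted p = 0.107). The first window upstream, chr15:3585000-3589999, read 88.0% ± 2.95 and 89.6% ± 0.815 and overlapped. Selenop, the plasma selenium carrier made by the liver, lies beyond the far end of Ghr. Over its 3 windows NASH read 42.7%, 43.5%, 42.7% and 45.4% and ND 35.2%, 39.6%, 35.9% and 34.1%. The groups did not overlap, and none of its windows passed the test (limma, smallest adjusted p = 0.0942).

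**Figure D5:**
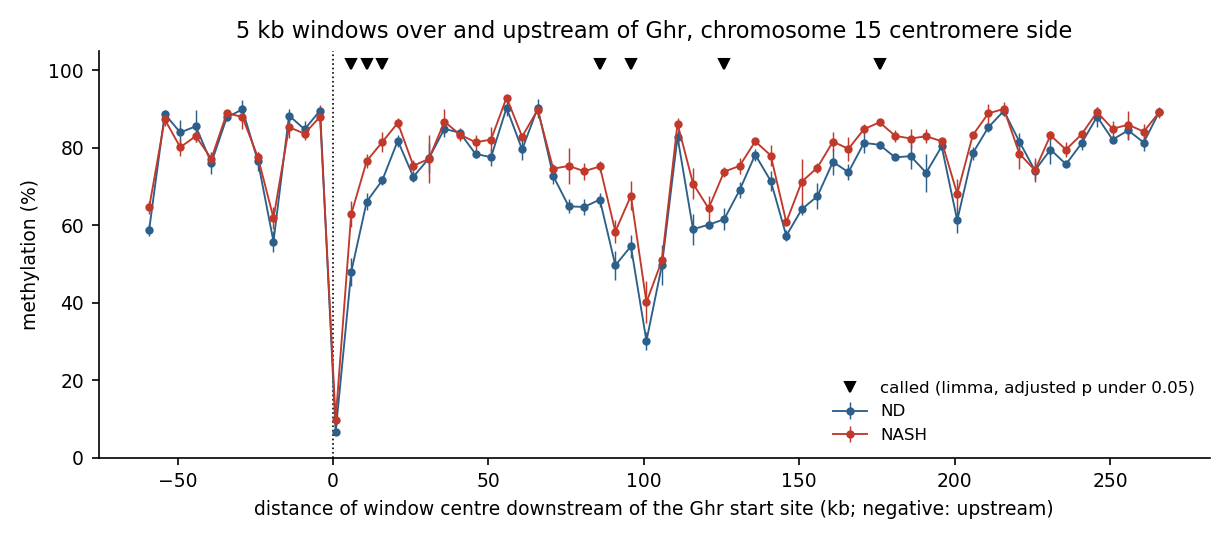
Methylation in percent of 5 kb windows over Ghr and upstream of it, by the distance of the window centre from the start site in kb (blue ND, red NASH, points are means and bars 1 SD over 4 libraries), with triangles over the 7 called windows. The start-site window is near 9.87% in NASH and 6.67% in ND, and NASH lies above ND in most windows inside the gene.

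The largest rise on the centromere side was over Sec14l2, a lipid-binding protein that carries tocopherol and squalene. At chr11:4110000-4114999 NASH libraries read 43.4%, 43.2%, 50.1% and 55.3% and ND libraries 30.2%, 34.0%, 31.9% and 34.8%. All NASH libraries were above all ND libraries (limma difference 15.3, SE 2.60, adjusted p = 0.0389), and with every zero left out the difference was 9.82 and no longer passed (adjusted p = 0.109). Its relative Sec14l4 held 1 called window that rose, by 11.7 percentage points.

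The aldo-keto reductase cluster of chromosome 13, whose enzymes reduce steroids and other carbonyl compounds, held 3 windows that rose. At chr13:4045000-4049999, at the edge of Akr1c14, NASH read 53.5%, 60.1%, 60.0% and 60.3% and ND 40.3%, 45.6%, 46.2% and 44.3% (limma difference 14.4, adjusted p = 0.026). At chr13:4430000-4434999, at the start of Akr1c6, NASH read 61.96%, 60.0%, 62.3% and 62.2% and ND 45.7%, 49.8%, 46.5% and 50.2% (limma difference 13.6, adjusted p = 0.0192). NASH replicate 1 was the low library in the first and the groups were apart in both. None of the other 6 Akr1c genes measured held a called window. Akr1c13 and Akr1c20 had higher means in NASH without overlap, although the median window of Akr1c20 differed by -0.838. Groups overlapped for Akr1c12, Akr1c18, Akr1c19 and Akr1c21, and Akr1c18 had the lower mean in NASH (-0.946).

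Mcm10, a DNA replication initiation factor, held 3 adjoining windows that rose on chromosome 2. At chr2:4995000-4999999 NASH read 69.6%, 71.7%, 70.3% and 75.3% and ND 56.7%, 59.1%, 57.5% and 57.3% (limma difference 14.1, adjusted p = 0.0192), and at chr2:4990000-4994999 the difference was 13.1 (limma, adjusted p = 0.0203). The groups lay far apart in both. Close by, Phyh, a peroxisomal enzyme of phytanic acid breakdown, held 1 window that rose, by 11.97. The other large rises on the side were over Akap9, a scaffold that anchors protein kinase A (chr5:3935000-3939999, 63.1% ± 1.44 against 49.6% ± 2.41), and over Sfi1, a centrosomal protein (chr11:3145000-3149999, 43.5% ± 4.95 against 30.1% ± 1.60). Pcx, which encodes the gluconeogenic enzyme pyruvate carboxylase, held 2 windows that rose, by 10.4 and 9.75.

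The largest fall was over Grk2, a kinase of G protein-coupled receptors, just beyond the block of zeros on chromosome 19. At chr19:4300000-4304999 NASH read 54.9%, 52.7%, 53.5% and 46.2% and ND 67.2%, 67.1%, 71.3% and 66.5%, apart in all libraries (limma difference -16.2, SE 2.21, adjusted p = 0.0228). Dnmt3a, a DNA methyltransferase that sets new methylation, held 1 window that fell. There, at chr12:3870000-3874999, NASH read 60.4%, 58.4%, 62.03% and 58.3% and ND 71.6%, 68.5%, 70.8% and 67.9% (limma difference -9.94, SE 1.68, adjusted p = 0.038). Its 23 windows together gave 70.9% ± 0.728 in NASH and 70.7% ± 0.413 in ND, with the groups overlapping.

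Fam107b held a window that fell, at chr2:3725000-3729999 (64.7% ± 3.37 in NASH, 75.9% ± 1.89 in ND), and 1 that rose, at its start, by 4.24. Dtnb (dystrobrevin beta) held 2 that fell, by 6.10 and 5.97, and 1 that rose, by 8.71. Windows over no listed gene fell at chr2:3540000-3544999 (-7.72), chr13:3780000-3784999 (-7.30) and chr16:4580000-4584999 (-6.68). Another fell at chr17:4660000-4664999, by 10.4 as deposited, but with doubtful zeros left out its difference was -1.27 and did not pass (limma, adjusted p = 0.467).

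On the telomere side the largest rise, with the smallest adjusted p, was at Arhgdia. At chr11:120575000-120579999 NASH read 48.7%, 47.2%, 43.2% and 50.8% and ND 28.1%, 34.3%, 31.5% and 32.2%. The groups were wide apart (limma difference 15.9, SE 1.88, adjusted p = 0.0177), and with every zero left out the difference was 9.17 (adjusted p = 0.0602). Ggact, which degrades crosslinked glutamyl-lysine, held 2 windows that rose, by 12.6 at chr14:122900000-122904999 and by 7.95 in the window before.

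Mettl7b, a membrane methyltransferase, was covered by 2 windows and both rose. At chr10:128955000-128959999, shared with the end of the integrin gene Itga7, NASH read 60.3%, 54.8%, 61.3% and 59.7% and ND 46.9%, 47.7%, 50.7% and 45.9% (limma difference 11.2, adjusted p = 0.0399). That difference was 5.31 with every zero left out and did not pass. Prpf6, a spliceosome component, read 86.0% ± 1.46 in NASH against 74.6% ± 3.84 in ND at chr2:181610000-181614999. Ankrd13c read 71.6% ± 1.96 against 60.5% ± 1.83 at chr3:157950000-157954999. A window over no listed gene, chr2:181245000-181249999, rose by 13.4.

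Cables2 rose from 61.7% ± 1.99 to 72.7% ± 2.01 at chr2:180260000-180264999, and Prdm16os rose from 19.8% ± 2.96 to 30.5% ± 3.57 at chr4:154640000-154644999. Their differences were -0.226 and 2.62 with every zero left out, and neither then passed (limma, adjusted p = 0.970 and 0.654).

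The largest telomere-side fall was over Cd34, a surface marker of blood progenitors and endothelium. At chr1:194940000-194944999 NASH read 66.8%, 69.6%, 64.4% and 70.5% and ND 84.9%, 80.9%, 79.9% and 80.2%, with no value at 0 (limma difference -13.7, SE 1.80, adjusted p = 0.0208). The groups were apart. The endothelial marker list read 67.9% to 69.0% in NASH and 69.0% to 70.4% in ND, just overlapping. The mean of the macrophage list was lower in NASH, with groups overlapping in most of its genes. The part of other cell types in this result was not tested. Prr13 fell at chr15:102460000-102464999 (67.2% ± 4.40 in NASH, 79.7% ± 2.46 in ND).

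Prdm16, a zinc finger regulator of brown fat identity, held 2 windows that fell. At chr4:154550000-154554999, which holds the Gm13133 promoter printed above, NASH read 74.4%, 71.3%, 72.8% and 70.3% and ND 82.7%, 79.0%, 78.4% and 82.2% (limma difference -8.36, adjusted p = 0.048). At chr4:154460000-154464999 the difference was -6.97 (limma, adjusted p = 0.0355). Over its 56 windows Prdm16 averaged 75.6% ± 0.684 in NASH and 77.2% ± 0.135 in ND, without overlap. Fgf14, a neuronal fibroblast growth factor homologue, fell in 1 of 134 windows, chr14:124660000-124664999, from 52.1% ± 2.37 to 41.5% ± 1.64. In that window 42.4% of values were 0, and its difference was -4.74 with every zero left out.

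The remaining large falls were over no listed gene, at chr12:118700000-118704999 (-11.8), chr19:60595000-60599999 (-10.2) and chr17:94530000-94534999 (-8.44). The last was -3.65 with doubtful zeros left out and did not pass (limma, adjusted p = 0.253).

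Windows over liver metabolism genes held a higher share of calls than windows at large, given here as a description without a test. Of 49 on the list, 39 lay over member windows, and 16 of their 321 windows rose and 0 fell (4.98%, against 0.605% of all windows). The list was chosen with earlier results of these data known. Its windows all lie over genes, where calls were more frequent. Over protein-coding genes, 38 of 2699 centromere-side windows rose and 7 fell, and 18 of 2496 telomere-side windows rose and 7 fell. In the interior, 1172 of 152452 such windows rose and 408 fell. The median difference over the list's windows was 0.359 percentage points, against -0.569 over the member windows and -0.639 over all windows. Ghr gave 7 of the 16, and without it 9 of 267 windows rose (3.37%). Called windows lay in 10 of the 39 genes, and 26 of the 39 had the higher mean in NASH. Groups did not overlap in 13 of these, and in 1 gene with the lower mean, Hnf4g, a nuclear receptor related to HNF4 alpha (75.4% ± 1.39 in NASH, 79.3% ± 0.109 in ND). Of all 726 protein-coding genes over member windows, 7.85% held a called window and 45.9% had the higher mean in NASH. Groups were apart with NASH higher in 11.6% of them and with NASH lower in 6.89%.

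Hmgcs1, an enzyme of cholesterol synthesis, read 61.1%, 60.1%, 60.8% and 64.4% over its 4 windows in NASH and 55.0%, 54.7%, 55.5% and 56.8% in ND, and 1 window rose, by 10.2 (limma, adjusted p = 0.0449). The groups were apart. Chka, the first enzyme of phosphatidylcholine synthesis from choline, rose in 1 window, from 7.29% ± 0.288 to 11.6% ± 1.43 (limma, adjusted p = 0.0265), while its promoter printed above stayed near 0. Pcyt2, of phosphatidylethanolamine synthesis, and Sirt7, a sirtuin deacylase, share a window that rose by 6.47.

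C6 rose at its start, from 37.8% ± 2.06 to 49.9% ± 4.01 (limma, adjusted p = 0.0399). Trap1, a mitochondrial chaperone, shares a window with Dnase1 that rose by 4.80. Lrp5, a Wnt co-receptor, rose by 9.19 in 1 window. Csad, an enzyme of taurine synthesis, averaged 62.9% ± 1.89 in NASH and 56.8% ± 0.903 in ND without overlap, and its top window missed the threshold (limma difference 16.8, adjusted p = 0.0509). The hepatocyte marker spans given at the start were higher in NASH as well, by 12.4 percentage points on the list mean, and their part in these rises was not tested.

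The other lists held few calls. Of 586 windows over 29 development and homeobox genes, 0 rose and 3 fell (0.512%), those over Prdm16 and Fgf14, with a median difference of -0.938. The Hoxc genes of the chromosome 15 telomere side were among the least methylated genes, from 5.13% ± 0.554 in ND at Hoxc12 to 13.8% ± 0.225 at Hoxc4. Esr1, the estrogen receptor, and Dscam, a neuronal adhesion molecule, had the next smallest p of the list and did not pass (limma, adjusted p = 0.0885 and 0.102). Of 272 windows over 32 immune and interferon genes, 0 rose and 1 fell (0.368%), with a median of -0.426.

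That window, in Zbtb46, a transcription factor of dendritic cells, read 84.4%, 84.4%, 85.1% and 81.8% in NASH and 90.9%, 91.6%, 90.9% and 88.7% in ND (limma difference -6.61, adjusted p = 0.0303). Crebbp, Nfe2 and Grk5 had the next smallest p and did not pass (limma, adjusted p = 0.0526, 0.0763 and 0.0919). Of 56 windows over 5 DNA methylation and heterochromatin genes, 0 rose and 1 fell, that over Dnmt3a (1.79%), with a median of 0.270. Morc2a, Rtel1 and Cbx5 did not pass (limma, adjusted p = 0.220, 0.331 and 0.615).

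The most methylated windows in ND on the centromere side lay over Zfp263 (97.7% ± 0.823), Cul2 (97.1% ± 0.709) and Asxl2 (97.0% ± 1.004). On the telomere side they lay over Gm1976 (97.7% ± 0.772), over the noncoding genes C030010L15Rik and B230307C23Rik (97.6% ± 0.544), and over Foxk2 (97.2% ± 1.10). On the centromere side 57 windows tied as the lowest, listed at 0 in every ND library, with 39 of them on chromosome 19, 9 on chromosome 14 and 9 on chromosome 15. The 3 lowest in ND on the telomere side were each over 90% zero. They were chr13:120070000-120074999 (1.41% ± 0.960), chr10:129980000-129984999 over Gm10310 (1.61% ± 2.28) and chr13:119990000-119994999 (2.04% ± 1.96). Among windows with up to 90% zeros the lowest lay over Rab10 (3.69% ± 0.378), Crem (4.13% ± 0.412) and Cpt1a (5.11% ± 1.32) on the centromere side. Their telomere-side counterparts were at Gm41080 (3.38% ± 0.762), Bahcc1 (3.40% ± 1.05) and 2810410L24Rik (3.61% ± 1.28). Cpt1a, which carries fatty acids into mitochondria for oxidation, read 5.28% ± 0.636 in NASH there, within the ND spread.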

How the data were processed

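Percent methylation per CpG cytosine was deposited by the authors for 8 libraries, with no read counts. FastQC and the build mm10 are named in the submitters' processing notes. Which aligner and caller were used is not given in the sources used here. Values were read for 15 chromosomes (30729668 rows). Chromosome 5 was read up to position 117098872, with chromosomes 6 to 9 and the sex chromosomes not analysed here. A further 326824 rows on 85 contigs and 1 incomplete line were left out. Listed positions were 1 above the coordinate of the CpG base in RefSeq promoters (GRCm38.p6) for 99.84% of 142029 rows checked. Windows use listed positions, and promoters use coordinates.

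A window's value is the unweighted mean of its levels in a library, zeros included, and a side's value is the mean of its windows. Side and end means were compared by exact permutation of the 4 NASH and 4 ND libraries (70 assignments), and sides within libraries by exact sign flips. Windows were tested with limma 3.58.1 (R 4.3.3, trend) over all 363344 windows, adjusted by Benjamini-Hochberg, after a test on simulated data. Genes come from RefSeq's annotation table. Listed genes of a window are its protein-coding, long noncoding RNA, pseudogene and microRNA entries, and other kinds were not looked up. Text names, per side and direction, up to 8 called windows with the largest difference and no overlap, per gene list the genes with called windows and the 4 with the smallest p, the 3 highest and lowest windows (lowest given as a count where tied at 0), and the 3 ends that differ most each way. Other genes and the promoters were chosen after their values were seen. Among these genes, Sec14l4, Phyh and Pcx held called windows, and Selenop and Csad held none. Members and gene lists were chosen with earlier results of these data known. In all, 14 kinds of alternative were planned and 3 were added after seeing the data. No 2 libraries held the same values.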

Additional observations from a re-analysis of the deposited data

Results flagged for a closer look

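In 19 of 132 groups of 4 libraries, 1 library lay far from the other 3, where chance marks about 1 group in 20 (6.6 groups). ND replicate 2 was the low library for the centromere-side mean (72.4%, against 73.4% to 73.6%), and at the centromere ends of chromosomes 2 (77.3%) and 18 (80.1%) and the telomere ends of chromosomes 2 (69.1%) and 19 (74.3%). NASH replicate 3 was the high library at the centromere ends of chromosomes 1 (77.6%), 11 (75.8%), 13 (78.7%) and 18 (80.6%) and the telomere ends of chromosomes 1 (78.3%) and 17 (72.4%). These ends share each library's overall level.

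Among named windows, NASH replicate 1 was low at Akr1c14 (53.5%) and high at Prr13 (73.7%). NASH replicate 2 was low at Akr1c6 (60.0%), NASH replicate 4 high at Sfi1 (50.9%), and NASH replicate 3 high at Prdm16os (35.9%). ND replicate 3 was high at Grk2 (71.3%), ND replicate 4 at chr2:181245000-181249999 (45.4%), and ND replicate 2 at the Prdm16 window chr4:154460000-154464999 (87.1%). These windows were named for groups that do not overlap.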

How the results depend on the processing

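The telomere side stayed below the interior under every alternative run (-7.33 to -2.49 percentage points). Its difference from the centromere side was -0.0568 with 1 Mb sides. The centromere side minus the interior was 0.921 with every zero left out and, in alternatives chosen after seeing the data, -0.0458 without the centromere end of chromosome 14 and 1.07 without windows over 90% zero and the centromere ends of chromosomes 14 and 19. No alternative gave a group difference of the side means that passed. Called windows on the centromere and telomere sides numbered 26 and 15 with 1 Mb sides. They numbered 90 and 53 without windows over 90% zero. The telomere side had 50 with every zero left out, and 53 without windows over 90% zero and the centromere ends of chromosomes 14 and 19. The 1 Mb sides come from the same fit over all windows, of which 0.605% were called. For the other settings the share of all windows called is not given here, so these counts describe the sides only. Ends with groups apart numbered 0 with doubtful zeros or with every zero left out.

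Leaving out 1 library in turn gave 0 to 14 called windows on the centromere side (0 without ND replicate 4, by limma) and 1 to 10 on the telomere side. The share of all windows called is not given here for these fits. Ends with groups apart numbered 1 to 7, in comparisons of 4 libraries with 3, where groups come apart by chance more often. Centromere minus interior ranged from -2.73 to -2.65, telomere minus centromere from -1.20 to -1.12, and the group differences from -0.697 to -0.283 (centromere) and -0.906 to -0.323 (telomere). Of 32 named called windows, 1 to 11 stayed called without 1 library, 27 with doubtful zeros left out, 20 with every zero left out (Cables2 turned to -0.226) and 28 on the logit scale. Not every window that lost its call with zeros left out is marked above where its values are given.

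Same-numbered libraries of the 2 groups did not deviate together (correlations -0.018, 0.014, 0.059 and -0.002), so the numbers were not taken as pairs. With the replicate number as a block, limma called 0 windows on the centromere side and 0 on the telomere side. There, 966 and 729 windows had an unadjusted limma p under 0.05, or 16.2% and 13.3%, against 14.2% in the interior. Without the block the numbers were 960 and 730, or 16.1% and 13.4%, against 14.2% in the interior. The unknown depth limits all values, and zeros limit the centromere side most.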
